A study of Saccharomyces cerevisiae with 9 samples.

Results

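Zinc homeostasis was followed through 8 genes of Saccharomyces cerevisiae: the transporter genes ZRT1, ZRT2, ZRT3, ZRC1 and ZRG17, the zinc-regulated genes ZPS1 and ADH4, and ZAP1, which encodes their transcriptional activator. They were chosen by gene name, around the fall of ZPS1 that RNA sequencing showed in a strain overexpressing YET3, and are 8 of the 6629 open reading frames counted. That fall chose the list, so values of the 8 genes in overexpression are given as a description, with no test. The study measured transcripts in 3 strains with 3 libraries each, all in exponential growth in SD medium. In the overexpression strain YET3 is driven by a TEF promoter inserted with a nourseothricin-resistance marker (NATR::TEFpr-YET3). In the strain labelled as a YET3 deletion the marker replaces the gene (DelYET3::NATR), and in the control strain the marker sits at the HO locus (HO::NATR). All 3 strains carry HISDel1 LEU2Del0 MET15Del0 URA3Del0, so the control is marked and auxotrophic too. YET3 encodes an endoplasmic reticulum membrane protein, and the series is about sterol synthesis at organelle contact sites. How many clones or cultures stand behind the libraries, the sources used here do not state, so p-values measure library-to-library spread, part of which may be technical.

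Yeast cells keep zinc within narrow limits mainly through Zap1, a zinc-sensing activator that is most active when zinc is scarce. It binds zinc-responsive elements in promoters and raises genes for uptake at the plasma membrane (ZRT1, ZRT2), release from the vacuole (ZRT3), storage in the vacuole (ZRC1), supply to the endoplasmic reticulum (ZRG17) and its own gene. ZPS1 encodes a putative GPI-anchored cell wall protein, and ADH4 an alcohol dehydrogenase made in quantity in zinc-poor cells.

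The zinc-responsive element is an 11-base palindrome, ACCTT then any base then AAGGT, so a match reads as a match on both strands. All 8 genes had a match with at most 1 mismatch within 1000 bases before the start codon, while 3.29% of 5996 such windows before coding genes in the RefSeq annotation of build R64 had one. Exact matches were found before 2 of the 8 genes, ZRT1 and ZRG17, and in 0.217% of all windows. In the shorter window from 250 bases before to 50 bases after the start codon, 2 of 8 genes had an exact match (0.0833% of 6001 windows) and 5 of 8 had one with at most 1 mismatch (1.18%). Neighbouring genes can share a window, and the element was first worked out on genes of this regulon, so the matches describe the promoters and are not independent of why the genes are grouped. The 3 promoters with 2 matches are shown first, in the direction of the gene with the matches in capitals.
ZPS1 (chrXV:34319-34364, plus strand): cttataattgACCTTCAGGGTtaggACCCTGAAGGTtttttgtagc
ZRT1 (chrVII:20649-20794, plus strand): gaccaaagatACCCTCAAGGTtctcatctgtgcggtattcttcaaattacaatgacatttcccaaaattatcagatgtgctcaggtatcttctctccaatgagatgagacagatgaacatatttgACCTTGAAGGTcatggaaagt
ZRT2 (chrXII:404304-404383, minus strand): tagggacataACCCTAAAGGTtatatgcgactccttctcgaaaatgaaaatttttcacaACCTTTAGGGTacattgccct

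The 2 matches of ZPS1 lie 4 bases apart and are exact reverse complements of each other, as are the 2 matches of ZRT2, which lie 38 bases apart. Those of ZRT1 lie 104 bases apart, and the one nearer the gene is exact. The other 5 genes had 1 match each, shown with 15 bases on both sides so that the flanks can be compared.
ZRT3 (chrXI:118638-118648, plus strand): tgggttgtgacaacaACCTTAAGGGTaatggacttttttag
ZRC1 (chrXIII:756330-756340, minus strand): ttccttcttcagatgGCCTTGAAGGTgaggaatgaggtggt
ZRG17 (chrXIV:699505-699515, minus strand): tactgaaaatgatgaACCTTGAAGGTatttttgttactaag
ADH4 (chrVII:14641-14651, plus strand): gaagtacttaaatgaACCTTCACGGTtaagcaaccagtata
ZAP1 (chrX:333207-333217, minus strand): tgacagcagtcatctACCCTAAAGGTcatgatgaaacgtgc

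Coordinates of single matches cover the capitals. Counted from 1 at the 5′ base of the match, 7 of the 9 inexact matches carried T4C (4 matches) or its mirror image on the other strand, A8G (3 matches). The match of ZRC1 carried A1G and that of ADH4 carried A8C. The ADH4 match lies between ADH4 and the divergent gene MNT2 and counts for both. The first base of a match stood between 84 and 518 bases before the start codon.

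**Figure D1:**
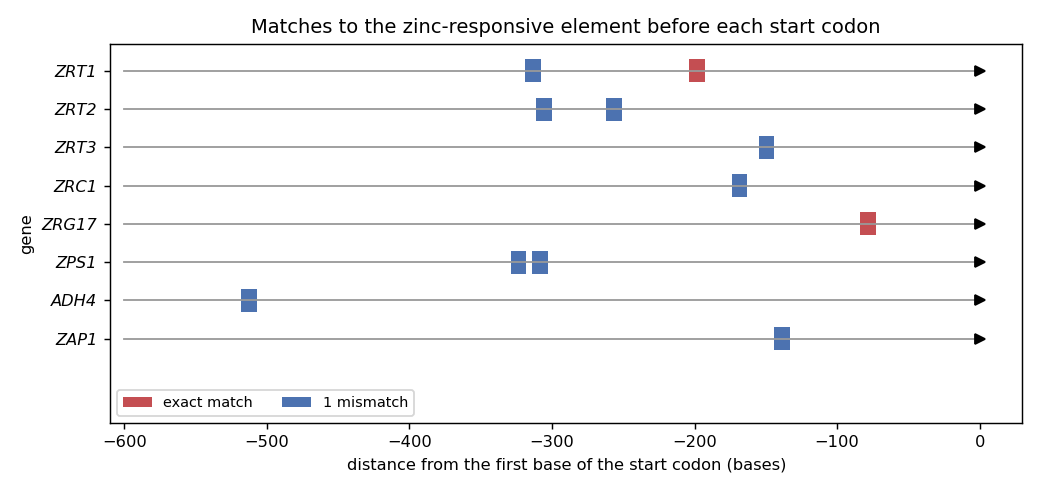
Matches to the zinc-responsive element before each of the 8 genes, with the distance from the first base of the start codon in bases on the horizontal axis; red blocks are exact matches and blue blocks have 1 mismatch. ZRG17 has the match nearest its start codon, beginning 84 bases before it, and ADH4 the farthest, beginning 518 bases before it.

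Libraries held between 223189 and 1634021 counts, so 1 count stood for 0.612 to 4.48 CPM (counts scaled to a common total); levels per library are CPM after TMM scaling, a correction for differences in library make-up, and pooled levels are plain CPM. YET3 itself stood at 2261, 2029 and 1341 TMM-scaled CPM in overexpression libraries 1 to 3. It stood at 728, 328 and 640 CPM in the libraries labelled YET3 deletion, against 477 to 479 CPM in control libraries. Of the libraries labelled deletion only deletion 2 lay below the control, and the log2 fold change of that group was 0.24 with all libraries and -0.54 without the 3 that lay apart, as described next. The YET3 row therefore does not show the loss that the deletion label gives. Whether the row counts bases outside the deleted stretch, or a label does not match its strain, was not tested. The HO row stood at 0 to 6.31 CPM in overexpression and 0 to 7.58 CPM in the libraries labelled deletion, against 45.0, 28.2 and 57.2 CPM in control libraries 1 to 3, whose marker is at HO. On the first principal component 3 libraries lay apart: overexpression 3, and deletion 1 and 3 by their labels, but no control library. The 5 rows named after YLR154W, in the ribosomal DNA, held 0.111 to 0.267% of counts in these 3 and 0.817 to 2.42% in the other 6, and what part this plays in the results was not tested. Several results are also given without these 3 libraries. Deletion 2 is then the only library left with the deletion label, so such values for that label have no replicate.

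In cells overexpressing YET3, the transcript of ZPS1 was about 16 times scarcer than in control cells, and the transcripts of ZRT1 and ADH4 were lower by factors of 1.86 and 1.5. For these 3 genes every overexpression library lay below every control library. The other 4 fitted genes had overlapping libraries. ZAP1 was too low for the fit and showed no difference beyond its spread. Of the 7 genes that passed the filter on low counts, 3 had libraries wholly below the control, beside 8.47% of the 5090 genes fitted. That count uses the contrast that chose the list and is not evidence about it.

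ZPS1 (YOL154W, chromosome XV, 34658 to 35407, plus strand, 750 bases) had 18.4, 17.3 and 21.9 CPM in overexpression libraries 1 to 3. It had 301, 320.5 and 294.5 CPM in control libraries 1 to 3. The overexpression values rest on 11, 11 and 10 counts, and the pooled 32 counts give 18.5 CPM with an exact 95% Poisson interval from 12.7 to 26.1 CPM, which covers counting error only. The log2 fold change was -4.00 (SE 0.32). It was -4.09 without the 3 libraries that lay apart, and ranged from -4.09 to -3.93 with each of the 9 libraries left out in turn.

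ZRT1 (YGL255W, chromosome VII, 20978 to 22108, plus strand, 1131 bases) encodes the high-affinity zinc transporter of the plasma membrane. It had 174, 147 and 208 CPM in overexpression libraries 1 to 3, against 328, 360 and 294.5 CPM in control libraries 1 to 3. The lowest control library stood above the highest overexpression library. The log2 fold change was -0.91 (SE 0.28), and -1.06 without the 3 libraries that lay apart. A fit of all 9 libraries with a term for the 3 gave -1.01.

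The counts of ZPS1 and ZRT1 kept a nearly fixed ratio in 6 libraries and another in 3. In the overexpression libraries there were 0.106, 0.118 and 0.105 ZPS1 counts per ZRT1 count. The ratio was 0.968, 0.896 and 0.934 in the libraries labelled YET3 deletion, and 0.918, 0.891 and 1.00 in the control libraries. This within-library ratio does not depend on scaling between libraries. It also held in the library labelled deletion 3, where both genes were at their highest. ADH4 moved more nearly with ZRT1, with 0.192 to 0.269 ADH4 counts per ZRT1 count in overexpression, 0.221 to 0.288 in the libraries labelled deletion and 0.157 to 0.210 in the control. Those ranges overlap between overexpression and control, but not between the libraries labelled deletion and the control.

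**Figure D2:**
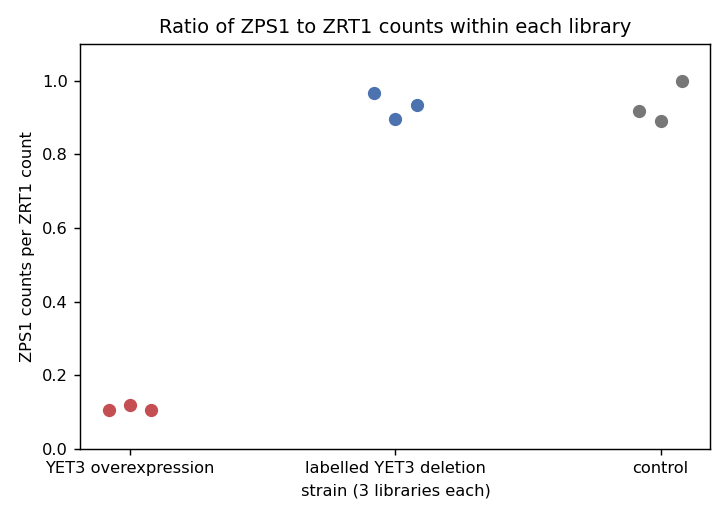
ZPS1 counts per ZRT1 count on the vertical axis, within each library, for the 3 strains on the horizontal axis; each point is 1 library. The overexpression points lie between 0.105 and 0.118, and the other 6 between 0.891 and 1.00.

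ADH4 (YGL256W, chromosome VII, 15159 to 16307, plus strand, 1149 bases) had 33.4, 39.4 and 45.9 CPM in overexpression libraries 1 to 3. Control libraries 1 to 3 had 69.0, 56.4 and 52.8 CPM. The groups did not overlap, with a gap of less than 10 CPM between the highest overexpression and the lowest control library. The log2 fold change was -0.61 (SE 0.33), and -0.71 without the 3 libraries that lay apart. ADH4 and ZRT1 lie on the same strand of chromosome VII, within a stretch of 10999 bases (11110 to 22108) that also holds MNT2, a mannosyltransferase gene, and VEL1. MNT2, a Zap1 target in the same stretch, had 41.7, 44.1 and 32.8 CPM in overexpression, against 45.0, 53.9 and 39.6 CPM in the control, and the libraries overlapped (log2 fold change -0.26, SE 0.27, adjusted p = 0.865 by edgeR's quasi-likelihood test). VEL1 had 0 to 6 counts per library and was not fitted. FZF1, which follows ZRT1 and encodes a sulfite-response factor, stood at 0.41 (SE 0.33, adjusted p = 0.814), and at 0.07 with the 3 outlying libraries dropped. Next to ZPS1, the mannoprotein gene HPF1 stood at -0.14 (SE 0.35, adjusted p = 0.947; -0.45 with those libraries dropped) and YOL153C at -0.06 (SE 0.25, adjusted p = 0.971).

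**Figure D3:**
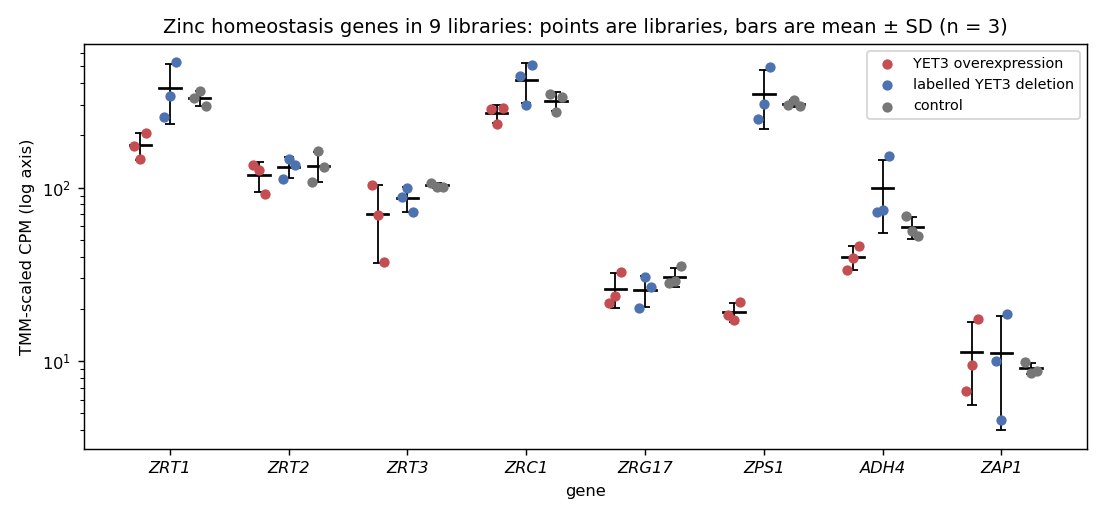
TMM-scaled CPM on a log axis for the 8 genes on the horizontal axis, with 3 libraries per strain as points and the mean ± SD as bars. ZPS1 in overexpression lies between 17.3 and 21.9 CPM, below all 6 libraries of the other strains, which lie between 248 and 493 CPM.

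ZRT2 (YLR130C, chromosome XII, 402794 to 404062, minus strand), the low-affinity plasma membrane zinc transporter gene, had 135, 126 and 91.9 CPM in overexpression libraries 1 to 3. Control libraries 1 to 3 had 108, 162 and 132 CPM, so the groups overlapped (log2 fold change -0.19, SE 0.25). ZRT2 has a pair of inexact elements, as ZPS1 does, and any link between element and level was not tested.

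ZRT3 (YKL175W, chromosome XI, 118793 to 120304, plus strand) encodes the transporter that releases zinc from the vacuole. It had 103.5, 69.4 and 37.2 CPM in overexpression libraries 1 to 3, against 107, 100.5 and 101 CPM in control libraries 1 to 3. Overexpression 3, which lay apart, was the lowest of all 9 libraries. The log2 fold change was -0.54 (SE 0.31), and -0.25 without the 3 libraries that lay apart.

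ZRC1 (YMR243C, chromosome XIII, 754838 to 756166, minus strand), which encodes the transporter that loads zinc into the vacuole, had 285, 232 and 289 CPM in overexpression libraries 1 to 3. Control libraries 1 to 3 had 346, 271.5 and 334 CPM, and overlapped with them (log2 fold change -0.24, SE 0.24). ZRG17 (YNR039C, chromosome XIV, 697614 to 699431, minus strand), a subunit of the zinc transporter of the endoplasmic reticulum, had 21.7, 23.6 and 32.8 CPM in overexpression, against 28.1, 28.8 and 35.2 CPM in the control (-0.21, SE 0.31). ZRG17 has an exact element, as ZRT1 does. Its libraries overlapped, at 13, 15 and 15 counts in overexpression, and any link between element and level was not tested.

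ZAP1 (YJL056C, chromosome X, 330431 to 333073, minus strand, 2643 bases) was the rarest of the 8 transcripts. It had 4, 6 and 8 counts in overexpression, 17, 3 and 7 in the libraries labelled deletion and 7, 14 and 2 in the control. Pooled over libraries this gave 10.4 CPM in overexpression (exact 95% Poisson interval 6.17 to 16.5), 10.02 CPM in the libraries labelled deletion (6.60 to 14.6) and 9.05 CPM in the control (5.74 to 13.6). The 3 intervals overlap, but they cover counting error only and their overlap is no test of a difference. Single libraries overlapped too, at 6.68 to 17.5 CPM in overexpression, 4.55 to 18.65 CPM under the deletion label and 8.58 to 9.85 CPM in the control.

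Per 1000 bases of coding length, mean levels in the control ran from ZPS1 (407 ± 18.0 CPM per kilobase, SD, n = 3) through ZRT1 (289.5 ± 28.8), ZRC1 (239 ± 30.2), ZRT2 (106 ± 21.1), ZRT3 (68.0 ± 2.36), ADH4 (51.7 ± 7.40) and ZRG17 (16.9 ± 2.13) to ZAP1 (3.43 ± 0.258). ZRT1 and ZRC1 overlapped by a margin under 1 CPM per kilobase, and no other neighbours in this order had overlapping libraries. In overexpression the order on the same scale was ZRC1 (202 ± 24.1), ZRT1 (156 ± 27.1), ZRT2 (92.8 ± 18.0), ZRT3 (46.3 ± 21.9), ADH4 (34.4 ± 5.47), ZPS1 (25.6 ± 3.18), ZRG17 (14.3 ± 3.27) and ZAP1 (4.24 ± 2.13). In the libraries labelled deletion the order was ZPS1 (463 ± 172), ZRT1 (330 ± 123), ZRC1 (314 ± 80.8), ZRT2 (104 ± 14.2), ADH4 (86.7 ± 39.4), ZRT3 (57.5 ± 9.37), ZRG17 (14.1 ± 2.85) and ZAP1 (4.19 ± 2.69). The first 3 overlapped, and ADH4 overlapped both ZRT2 and ZRT3, which did not overlap each other. ZPS1 thus stood at the top of the 8 in the control and near the bottom in overexpression. In overexpression ZRC1 and ZRT1 overlapped, and so did ZRT3 and ADH4, and ADH4 and ZPS1. The counting window of the reads is not stated, so these levels per length compare genes only roughly.

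In the strain labelled YET3 deletion, none of the 7 fitted genes passed edgeR's quasi-likelihood test against control, beside 0.0196% of 5090 genes called. The DESeq2 Wald test called none of them either, and 1 of the 7, ADH4, had an unadjusted p under 0.05. ADH4 had 72.7, 74.3 and 152 CPM in the libraries labelled deletion 1 to 3, each above the 3 control libraries (log2 fold change 0.67, SE 0.30, adjusted p = 0.414). Its value was 0.31 without the 3 libraries that lay apart and 0.28 without deletion 3 alone, which held the highest ADH4 level of all. ZPS1 had 248, 302 and 493 CPM (0.17, SE 0.26, adjusted p = 0.779) and ZRT1 had 256, 337 and 528 CPM (0.17, SE 0.27, adjusted p = 0.790). For ZPS1, ZRT1 and ADH4 alike, deletion 3 was the highest of all 9 libraries. Without deletion 3 ZPS1 stood at -0.16 and ZRT1 at -0.16.

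ZRC1 had 439, 300.4 and 512 CPM in the libraries labelled deletion (0.40, SE 0.24, adjusted p = 0.450). Both high values belong to libraries that lay apart. The log2 fold change was -0.05 without the 3, with deletion 2 the only library labelled deletion. ZRT3 had 88.7, 100.1 and 71.9 CPM, each below the control range of 100.5 to 107 CPM (-0.23, SE 0.30, adjusted p = 0.737; -0.035 without the 3). ZRT2 (-0.05, SE 0.24, adjusted p = 0.945) and ZRG17 (-0.26, SE 0.30, adjusted p = 0.693) overlapped the control. ZAP1 differed from the control by 2.01 CPM on average, with a two-sided exact permutation p of 0.7, where 3 libraries against 3 cannot go below 0.1. Libraries did not overlap for 2 of the 7 genes, ADH4 above and ZRT3 below the control, beside 19.4% of all genes in either direction.

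Overexpression set directly against the strain labelled deletion uses the same overexpression libraries, so it repeats part of the first comparison. The log2 fold change was -4.16 (SE 0.32) for ZPS1, -1.28 (SE 0.32) for ADH4, -1.07 (SE 0.28) for ZRT1 and -0.63 (SE 0.24) for ZRC1. Libraries of both strains did not overlap for these 4 genes, beside 4.18% of all genes, a count that rests on the overexpression values that chose the list. ZRT3, ZRT2 and ZRG17 lay between -0.31 and 0.05. Without the 3 libraries that lay apart ZRC1 stood at -0.22 and ZRG17 at -0.42, with deletion 2 the only library labelled deletion.

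**Figure D4:**
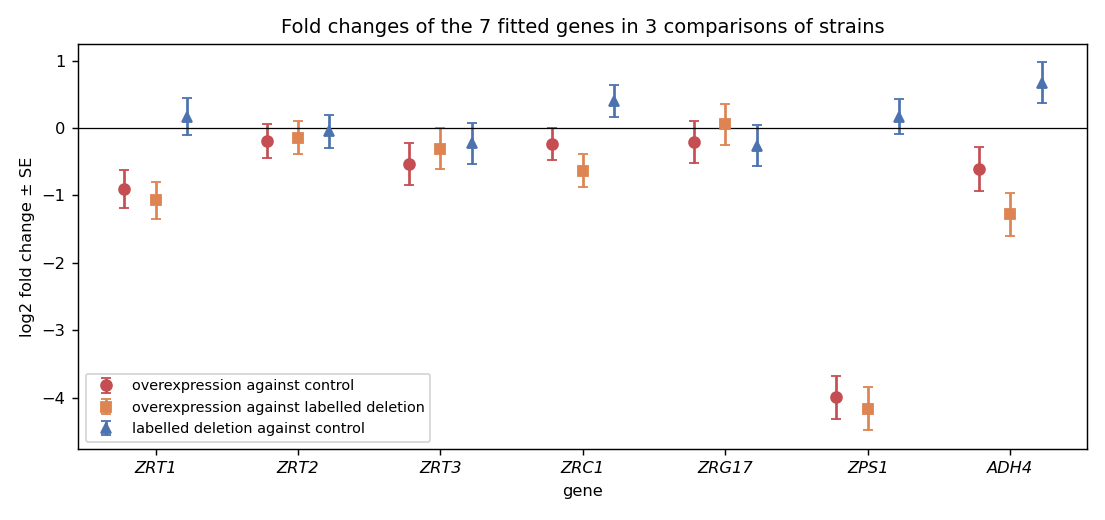
Log2 fold change ± SE on the vertical axis for the 7 fitted genes in 3 comparisons: overexpression against control (circles), overexpression against the libraries labelled deletion (squares) and the libraries labelled deletion against control (triangles). ZPS1 lies at -4.00 and -4.16 in both comparisons of overexpression and at 0.17 in the third.

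The genes closest to ZPS1 over the 9 libraries were sought among the 5089 other fitted genes by the root mean square difference of log2(CPM + 2), after centring each gene on its own mean. The nearest were YMR316C-B (1.07), the fatty acid elongase gene ELO1 (1.15), DPA10 (1.16, listed as YLR307C-A), the isocitrate lyase gene ICL1 (1.16) and the acetate transporter gene ADY2 (1.18). A gene with no change at all would stand at 1.87 from ZPS1, so these are distant matches. ELO1 had 35.05 to 56.9 CPM in overexpression, against 129 to 184 CPM in the libraries labelled deletion and 105.5 to 135 CPM in the control. ZRT1 ranked 12 and ADH4 ranked 20 by the same measure (1.40 and 1.46). The 9 libraries come from only 3 strains and differ in depth.

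Other zinc genes were followed in 3 lists. These lists were drawn up with earlier results of these data known, so their counts and calls are not independent evidence. Of 18 further genes listed as Zap1 targets 15 were fitted, and in overexpression against control 2 were called higher and 0 lower by edgeR's quasi-likelihood test, with the same 2 called by DESeq2 and 4 at an unadjusted p under 0.05. Over all genes 0.629% were called higher and 0.216% lower by edgeR, and DESeq2 called 43 genes higher and 18 lower. Counts at an unadjusted p under 0.05, here and elsewhere, have no share of all genes beside them and only describe. The list's median log2 fold change was 0.16, with 9 positive and 6 negative, beside a median of -0.0019 over all genes. The called genes were NRG2 and IZH4.

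NRG2, which encodes a repressor of glucose-repressed genes, had 174, 189 and 273.5 CPM in overexpression libraries 1 to 3, against 47.8, 48.4 and 35.2 CPM in control libraries 1 to 3. The lowest overexpression library was more than 3 times the highest control library, and NRG2 rose (2.21 on the log2 scale, SE 0.31, adjusted p = 0.00324). The call held with each of the 9 libraries left out in turn (adjusted p up to 0.0401). NRG2 was also higher in overexpression than in the libraries labelled deletion, at 88.1, 44.0 and 56.0 CPM (1.70, SE 0.29, adjusted p = 0.0166), a call that ended without deletion 3 (adjusted p = 0.0932).

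IZH4, of the IZH family of membrane proteins linked to zinc and sterol metabolism, had 40.1, 34.7 and 56.9 CPM in overexpression libraries 1 to 3. It had 12.7, 4.90 and 4.40 CPM in control libraries 1 to 3, which rest on 9, 8 and 1 counts. IZH4 rose (log2 fold change 2.54, SE 0.53, adjusted p = 0.0432). Leaving out any one control or overexpression library ended the call: adjusted p was 0.0927, 0.532 and 0.170 for controls 1 to 3, and 0.117, 0.106 and 0.0638 for overexpression 1 to 3. With the 3 outlying libraries dropped it stood at 2.36 (adjusted p = 8.28e-04). Against the libraries labelled deletion IZH4 stood at 2.59 (SE 0.52, adjusted p = 0.0409), and this call ended without control 1, 2 or 3, overexpression 1 or 2, or deletion 1 or 2 (adjusted p from 0.0671 to 0.295).

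IZH1, of the same family, had 35.05, 29.9 and 26.3 CPM in overexpression, against 10.6, 10.6 and 7.99 CPM in the libraries labelled deletion, and was called higher there by a narrow margin, 1 of 3 genes of the list called higher in that comparison beside 0.668% of all genes (1.58, SE 0.33, adjusted p = 0.0499). With 1 library left out in turn the call held in 1 of 9 fits, that without overexpression 3 (adjusted p = 0.0401), and ended in the other 8 (0.0750 to 0.294). With the 3 outlying libraries dropped together IZH1 stood at 1.59, with deletion 2 the only library labelled deletion. Control libraries, at 21.1, 20.8 and 30.8 CPM, lay between the other strains and overlapped with overexpression (0.44, SE 0.30, adjusted p = 0.777). In that comparison ATG41, an autophagy gene also known as ICY2, was lower in each overexpression library, with 70.1, 107 and 118 CPM against 172, 242 and 154 CPM in the control. Its log2 fold change of -0.97 (SE 0.26) missed the threshold (adjusted p = 0.180) and passed once those 3 outlying libraries were dropped (-1.17, adjusted p = 7.18e-04). In the libraries labelled deletion ATG41 stood at 89.3, 98.6 and 82.6 CPM, below every control library (-1.09, SE 0.26, adjusted p = 0.400). IZH2, of the IZH family, went the other way in overexpression, with 55.1, 80.4 and 89.7 CPM against 35.2, 42.9 and 44.0 CPM in the control. Each overexpression library lay above every control library, and IZH2 also missed the threshold (0.88, SE 0.27, adjusted p = 0.294).

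Of 6 other genes of zinc transport, all fitted, 0 were called in overexpression against control by edgeR's quasi-likelihood test or by DESeq2, and 2 had an unadjusted p under 0.05. With 0.845% of all genes called in either direction, a count of 0 in a list this short is no result about it. Their median log2 fold change was -0.37. MSC2 encodes the partner of Zrg17 in the endoplasmic reticulum transporter. It had 13.4, 12.6 and 8.75 CPM in overexpression, against 35.2, 26.4 and 26.4 CPM in the control (-1.31, SE 0.43, adjusted p = 0.393). The libraries labelled deletion, at 7.10, 21.2 and 13.3 CPM, were also below every control library (-1.22, SE 0.41, adjusted p = 0.400), and stood at -0.45 without the 3 that lay apart. COT1, the vacuolar transporter gene related to ZRC1, had 58.4, 72.5 and 81.0 CPM in overexpression, against 92.9, 110 and 101 CPM in the control (-0.53, SE 0.23, adjusted p = 0.681). YKE4, another zinc transporter gene, stood at -0.61 (SE 0.35, adjusted p = 0.746) and at -0.30 with the 3 outlying libraries dropped, and the phosphate transporter gene PHO84, whose product also carries zinc at low affinity, at 0.14 (SE 0.26, adjusted p = 0.929).

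Of 15 genes for zinc-requiring enzymes 14 were fitted, and 0 were called in overexpression against control by edgeR's quasi-likelihood test or by DESeq2, with 1 at an unadjusted p under 0.05. This too is near the 0.845% of all genes. The median log2 fold change was 0.058. The carbonic anhydrase gene NCE103 had 1736, 1685 and 1083 CPM in overexpression, against 2356, 2191 and 2462 CPM in the control (-0.64, SE 0.28, adjusted p = 0.681). Its lowest overexpression value belongs to overexpression 3. The libraries labelled deletion, at 977.5, 1631 and 837 CPM, were also below every control library (-1.02, SE 0.28, adjusted p = 0.400). NCE103 stood at -0.51 there with the 3 outlying libraries dropped, with deletion 2 the only library under that label. In overexpression against control LEU4, for leucine synthesis, stood at -0.56 (SE 0.27, adjusted p = 0.719). The superoxide dismutase gene SOD1 stood at -0.50 (SE 0.39, adjusted p = 0.793; -0.14 with the 3 outlying libraries dropped) and the aldolase gene FBA1 at 0.23 (SE 0.20, adjusted p = 0.833). In the libraries labelled deletion LEU4 stood at -0.64 (SE 0.27), SOD1 at -0.83 (SE 0.39) and FBA1 at 0.305 (SE 0.195). None of these 3 was called there. ADH1, the main fermentative alcohol dehydrogenase gene, was named after its values were seen. It averaged 9868 ± 1092 CPM in overexpression and 8912 ± 453 CPM in the control (SD, n = 3 each), and the libraries overlapped. Its log2 fold change was near 0 (0.15, SE 0.20, adjusted p = 0.899). In the libraries labelled deletion 0 genes of the 3 lists were called by either tool, with 5 at an unadjusted p under 0.05. Over all genes edgeR called 0.0196% there, and DESeq2 called 0 higher and 5 lower. A count of 0 is near that share and is no result about the lists.

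**Figure D5:**
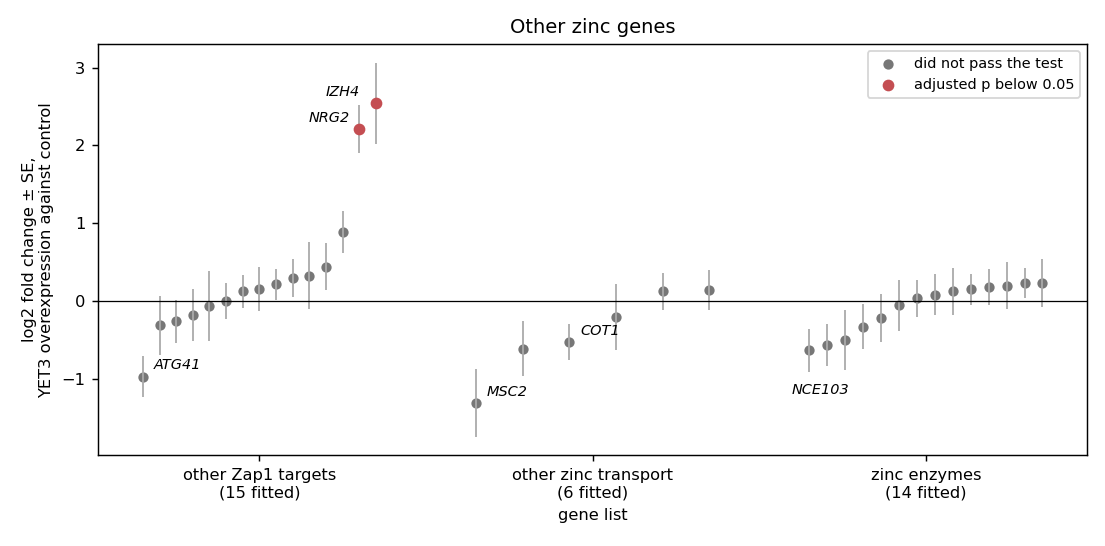
Log2 fold change ± SE in YET3 overexpression against control on the vertical axis, for the fitted genes of 3 lists of other zinc genes on the horizontal axis, sorted within each list. NRG2 at 2.21 and IZH4 at 2.54 (red) passed the test, and the other 33 genes (grey) did not.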

How the data were processed

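The authors deposited 1 table of whole-number counts per library, with a row per open reading frame. The tools cutadapt and UMI-tools and the genome build R64 are named per the submitters' processing notes. The sources used here do not give the aligner, counting window, use of strand or treatment of shared reads, so antisense and near-identical genes cannot be told apart. Of 6631 rows, 2 repeated an identifier and were dropped; 5956 identifiers matched RefSeq R64.

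Genes were kept with filterByExpr (minimum count 10, minimum total 15), leaving 5090. Counts were TMM-scaled, and 9 libraries entered 1 fit with a coefficient per strain, tested by the quasi-likelihood method of edgeR with p-values adjusted over all genes after Benjamini and Hochberg. Adjusted p-values come from it unless another tool is named. R 4.3.3, edgeR 4.0.16 and DESeq2 1.42.0 were used, and the fit was tested on simulated data. SE is the log2 fold change over the square root of F. "Called" means past 0.05. No 2 libraries of a strain agreed within counting noise.

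The members and lists were chosen with earlier results of these data known. The other genes named are those called in a list or otherwise the 4 with the smallest p, the genes beside ZPS1, ZRT1 and ADH4, and the 5 closest to ZPS1. ATG41, IZH2, MNT2, VEL1, YET3, ADH1 and ADH2 were added. Alternatives were no filter, a stricter one (20 CPM in 3 libraries), size factors or the Wald test from DESeq2, only the 6 libraries compared, a replicate block, each library left out, and the 3 libraries that lay apart left out or given a term.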

Additional observations from a re-analysis of the deposited data

How the results depend on the processing

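Refits under 17 alternatives moved the counts of genes called. Without the 3 libraries that lay apart, overexpression against control gave 90 higher and 76 lower genes, the libraries labelled deletion gave 5 lower, and overexpression against deletion gave 59 higher and 17 lower. With a term for them the counts were 72 and 41 in overexpression against control, and 89 and 17 against deletion. The DESeq2 Wald test called 18 lower in overexpression against control, 5 lower in the libraries labelled deletion, and 54 higher and 5 lower in overexpression against deletion. With only the 6 libraries compared, 3 were lower in the libraries labelled deletion and 13 higher in overexpression against deletion. With 1 library left out, overexpression against control gave 9 to 37 higher and 2 to 13 lower, the libraries labelled deletion 1 to 5 lower, and overexpression against deletion 14 to 57 higher and 1 to 17 lower. Over the 3 other zinc lists these fits gave 1 to 2 higher against control and 1 to 3 higher against deletion. In those lists 1 gene, ATG41, was called lower in overexpression against control without the 3 libraries and 1, ATG41, with the term, and 0 were higher against deletion with only the 6 libraries compared. In the window from 250 bases before to 50 after the start codon, 5 members had the element with 1 mismatch allowed.

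Whether replicate numbers pair the libraries could not be settled. Correlations of same-numbered deviations ran from -0.46 to 0.511, with 3 of 9 over 0.1. Pairs with unlike numbers reached 0.594 (overexpression 1 with deletion 2) and -0.712 (overexpression 3, which lay apart, with deletion 2). With a replicate block 4 genes were called lower in overexpression against control, and 1 gene of the other zinc lists higher, since IZH4 missed the threshold (adjusted p = 0.0601).

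Some signs changed. In the libraries labelled deletion against control, leaving out the 3 libraries keeps deletion 2 alone under that label. That turned ZPS1 to -0.025, ZRT2 to 0.097, ZRC1 to -0.052 and ZRG17 to 0.053. The term turned ZPS1 to -0.031, ZRT1 to -0.04, ZRT2 to 0.167 and ZRT3 to 0.185. With 1 library left out ZPS1 ran from -0.162 to 0.37, ZRT1 from -0.158 to 0.388 and ZRT2 from -0.189 to 0.134. In overexpression against control the term turned YOL153C to 0.031, and with 1 library left out YOL153C ran from -0.247 to 0.063, HPF1 from -0.422 to 0.05 and PHO84 from -0.041 to 0.268. In overexpression against deletion ZRG17 stood at 0.052, and at -0.418 without the 3 libraries, where deletion 2 alone keeps the deletion label. With 1 library left out ZRG17 ran there from -0.166 to 0.233, and ZRT2 from -0.263 to 0.002. The cause was not tested. Low counts limit ZAP1 and ZPS1 in overexpression.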

Other observations

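Besides ZRT1 and ZRG17, 11 coding genes had an exact zinc-responsive element within 1000 bases before the start codon. Of these 9 were fitted, and in overexpression against control 0 were called by edgeR's quasi-likelihood test or by DESeq2, with 0 at an unadjusted p under 0.05. Over all genes 0.845% were called, so 0 of 9 is near that share. Their log2 fold changes lay between -0.34 for TEX1 (SE 0.32) and 0.87 for ERO1 (SE 0.43, adjusted p = 0.738), the oxidase gene of protein folding in the endoplasmic reticulum, with a median of 0.028. MCD4, a GPI anchor synthesis gene and listed Zap1 target with an exact element, stood at 0.32 (SE 0.43, adjusted p = 0.899). MRX15, which shares the region before ZRG17, stood at 0.03 (SE 0.54, adjusted p = 0.998).

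With at most 1 mismatch, 189 genes outside the 8 had a match and 162 were fitted. In overexpression against control 1 of them was called by edgeR's quasi-likelihood test, the methionine permease gene MUP1, which fell, and DESeq2 also called 1. That is 0.617% of the 162, beside 0.845% of all genes fitted. An unadjusted p under 0.05 was found for 13, a cut with no share of all genes beside it.

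The alcohol dehydrogenase gene ADH2, named outside the rule for naming genes, was too low for the main fit. With no filter its log2 fold change in overexpression against control was -1.82 (SE 0.55, adjusted p = 0.276 by edgeR's quasi-likelihood test). It had 2, 3 and 2 counts in overexpression, against 10, 24 and 4 counts in the control, or 3.34, 4.73 and 4.38 CPM against 14.1, 14.7 and 17.6 CPM. It had 4.73, 10.6 and 5.33 CPM in the libraries labelled deletion.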
